A study of Mus musculus with 12 samples.

Results

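Cytochrome P450 genes encode heme enzymes that use oxygen and electrons from a partner reductase to oxidize small molecules. The members were all genes whose symbol starts with Cyp and a digit, apart from Cyp51 and symbols marked as pseudogenes (-ps), that are named alone by at least 1 probe set of the array. This gave 71 genes in 34 subfamilies, out of 18194 genes measured, and each was read from the brightest of its probe sets, by the mean of all 12 arrays. Array values were log2 intensities, so that a difference of 1 on this scale is a doubling.

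In liver, the Cyp1, Cyp2 and Cyp3 families oxidize drugs, toxins and steroids, the Cyp4 family hydroxylates fatty acids, and Cyp7a1, Cyp7b1, Cyp8b1, Cyp27a1 and Cyp39a1 take part in bile acid synthesis. Hepatocytes divide this work by position: Cyp2e1, Cyp1a2 and several Cyp2c genes are known for pericentral expression, where Wnt/β-catenin signaling is active, and Cyp2f2 is the classical periportal P450 gene. Many members respond to ligand-activated factors such as CAR (Nr1i3), PXR (Nr1i2), PPAR-alpha and AHR, and some differ between male and female mice through the pattern of growth hormone release.

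The RNA came from 12 male mice of 129J background on a regular diet, 3 in each of 4 groups, with 1 Affymetrix mouse genome array per mouse. WT 6 months and WT 24 months were normal livers of wild-type mice at 6 and 24 months of age. KO 6 months were normal livers of mice lacking Iqgap2 in the whole body (Iqgap2-/-), a gene for a scaffold protein, and KO 24 months tumor was RNA of hepatocellular carcinomas (HCC) from such mice at 24 months. The tumors thus differ from the normal livers of WT 24 months in tissue as well as in genotype, and these cannot be told apart.

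Iqgap2, the deleted gene, went against the labels. Its brighter probe set read 8.32 ± 0.07 (SD, n = 3 here and below) under the label WT 6 months and 8.29 ± 0.34 under KO 6 months. Under KO 24 months tumor it read 12.12 ± 0.06, and under WT 24 months 12.17 ± 0.21. The deposited labels are therefore used below as names of sets of arrays only. Exchanging WT 6 months with KO 24 months tumor renames the pairs compared and alters no value. Hepatocyte markers were high in every array, with a mean log2 intensity of 4 genes between 14.81 and 14.97. Adrenal cortex markers (4 genes, between 4.63 and 5.18) and kidney markers (4 genes, between 4.13 and 4.39), the other organs rich in P450 genes, were dim in every array.

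Most differences among P450 genes lay between the arrays labelled WT 6 months and the 9 others. Against the mean of the other 3 groups, 8 members were higher and 19 lower at an adjusted p of 0.05 or less (limma fit of all 12 arrays, Benjamini-Hochberg over 18194 genes), while 22.1% of all genes passed, 10.6% higher and 11.5% lower. With a fold of 3 or more in addition, 2 members were higher and 7 lower, against 2.5% of all genes in either direction. The median difference was -0.21 over the 71 members and -0.04 over all genes, and the median size without sign was 0.45 and 0.17. Markers of other cell types moved with these arrays. Of 5 sinusoidal endothelium markers 4 were lower there, with mean log2 intensities of 6.29 to 7.01 against 7.25 to 9.04 in the other arrays, and of 5 stellate cell markers 3 were lower, with 6.24 to 6.88 against 7.57 to 8.28. Of 4 cholangiocyte markers 2 and of 5 lymphocyte markers 1 were lower, although the mean over each list overlapped between these arrays and the others. None of 5 Kupffer cell and none of 4 hepatocyte markers passed. The part of these cell types in the P450 differences was not tested. In whole tissue, fewer cells of a type and less RNA per cell cannot be told apart.

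**Figure D1:**
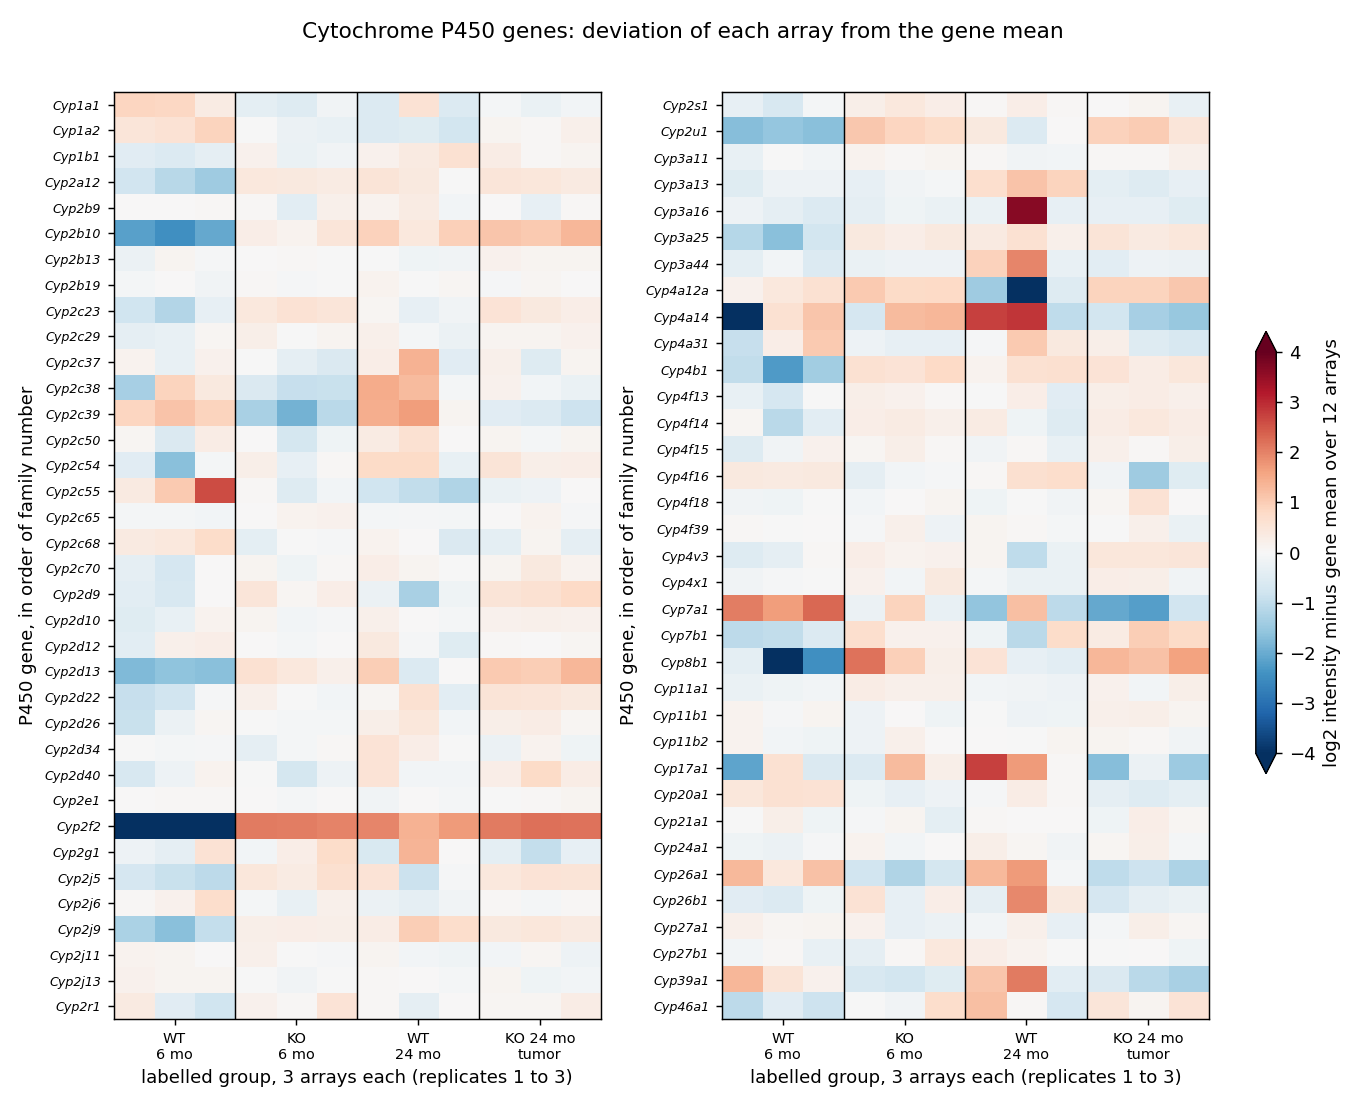
Deviation of each array (columns, 3 per labelled group) from the gene's mean over 12 arrays in log2 intensity (color scale, saturated at 4), for the 71 P450 genes (rows, in order of family number). Cyp2f2, Cyp2b10, Cyp2d13, Cyp2u1 and Cyp2j9 are blue in all 3 arrays labelled WT 6 months, and Cyp3a16 and Cyp4a12a stand out in replicate 2 of WT 24 months.

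Cyp2f2, which in the lung and liver activates compounds such as naphthalene, showed the widest difference. It read 4.68, 7.94 and 5.71 under the label WT 6 months, 14.06, 14.04 and 13.98 in KO 6 months, 13.95, 13.40 and 13.69 in WT 24 months, and 14.07, 14.20 and 14.17 in KO 24 months tumor. All 3 arrays labelled WT 6 months were far below the other 9, which lay close together, and the groups did not overlap. The difference from the mean of the other groups was -7.84 (SE 0.48, adjusted p = 1.1e-06 from limma). Replicates 1 and 3 of WT 6 months were below the level of the median gene (6.52), where a probe set carries little signal over background, so that no exact fold is given. It ranged from -7.12 to -8.76 when replicates 1 and 2 of WT 6 months, the lowest and the highest there, were left out in turn. The 250 bases before the start site of Cyp2f2, its proximal promoter, are shown because no other member differed as widely. In RefSeq (GRCm38.p6, plus strand) they lie at chr7:27119705-27119954, and capitals mark AGGTCA, a motif of the kind that nuclear receptors bind.
Cyp2f2: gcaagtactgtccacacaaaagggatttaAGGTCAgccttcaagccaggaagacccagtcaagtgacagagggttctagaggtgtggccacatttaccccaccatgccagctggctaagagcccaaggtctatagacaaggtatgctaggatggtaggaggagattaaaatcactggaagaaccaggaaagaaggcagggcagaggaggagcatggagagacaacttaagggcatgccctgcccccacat

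Cyp2b10, the classical target gene of the xenobiotic receptor CAR, was also lower in the arrays labelled WT 6 months. It read 5.57, 5.29 and 5.67 there, 7.99, 7.88 and 8.22 in KO 6 months, 8.67, 8.17 and 8.68 in WT 24 months, and 8.85, 8.77 and 9.07 in KO 24 months tumor. The 3 arrays labelled WT 6 months were below all 9 others, among which KO 24 months tumor was highest. The difference from the mean of the other groups was -2.97 (SE 0.13, adjusted p = 9.86e-08, limma), with all arrays labelled WT 6 months below the median gene's 6.52, so that again no exact fold is given. All 3 probe sets of Cyp2b10 were lower: the other 2 averaged 4.42 and 3.82 in WT 6 months against 8.12 to 9.27 and 7.32 to 8.46 in the other groups, and the mean of the 3 differed by -3.77. Cyp2b9, Cyp2b13 and Cyp2b19, the other measured genes of the subfamily, did not pass and read between 3.45 and 4.29 in every array. The 250 bases before the Cyp2b10 start site (GRCm38.p6, plus strand) lie on the same chromosome as those of Cyp2f2, at chr7:25897408-25897657, and are given for comparison with them. Capitals mark GCGTG, the core that AHR with its partner ARNT binds, which occurs once on each strand (CACGC on the other).
Cyp2b10: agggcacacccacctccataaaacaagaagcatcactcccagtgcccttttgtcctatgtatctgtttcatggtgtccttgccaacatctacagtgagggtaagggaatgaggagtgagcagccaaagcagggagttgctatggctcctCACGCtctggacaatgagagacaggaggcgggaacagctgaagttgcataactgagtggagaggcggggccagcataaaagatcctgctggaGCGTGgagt

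Cyp2f2 and Cyp2b10 belong to a run of 8 neighboring members on chromosome 7 (Cyp2a12, Cyp2b9, Cyp2b10, Cyp2b13, Cyp2b19, Cyp2f2, Cyp2g1 and Cyp2s1). Of these, 4 passed and were lower, namely Cyp2f2, Cyp2b10, Cyp2a12 (-1.46, SE 0.14, adjusted p = 2.49e-05, limma) and Cyp2s1 (-0.46, SE 0.12, adjusted p = 0.0182, limma), the last with its call lost without replicate 1 (adjusted p = 0.0539) or 2 (adjusted p = 0.117) of WT 6 months and with housekeeping centering (adjusted p = 0.215). Every group mean of Cyp2s1 (4.87 to 5.52) was below the median gene's 6.52, where a probe set carries little signal over background. None of the 8 was higher, and the median difference over the run was -0.28. Of all genes 10.6% were higher and 11.5% lower. These counts leave out Cyp2a4 and Cyp2a5, whose shared probe set was not tested. That probe set went the other way: its mean was highest under the label WT 6 months (14.56 ± 0.27), while the other group means lay between 12.93 and 13.71.

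Other members lower in the arrays labelled WT 6 months came from several subfamilies. Cyp2u1, a fatty acid hydroxylase, read 5.98, 6.11 and 5.99 in WT 6 months, 8.75, 8.55 and 8.40 in KO 6 months, 8.06, 7.12 and 7.69 in WT 24 months, and 8.60, 8.68 and 8.15 in KO 24 months tumor. The arrays labelled WT 6 months were lowest, WT 24 months was intermediate, and the other 2 groups overlapped. The difference from the mean of the other groups was -2.19 (SE 0.17, adjusted p = 7.26e-06, limma) and -1.50 over the mean of its probe sets. Cyp2d13, which RefSeq classes as a transcribed pseudogene, differed by -2.23 (SE 0.24, adjusted p = 6.65e-05), Cyp4b1, which activates pneumotoxins, by -2.06 (SE 0.21, adjusted p = 5.17e-05), Cyp2j9, of a subfamily that oxidizes arachidonic acid, by -1.74 (SE 0.15, adjusted p = 1.57e-05) and Cyp3a25, a steroid hydroxylase, by -1.58 (SE 0.16, adjusted p = 4.16e-05, all limma). In each of these 4 genes every array labelled WT 6 months lay below every other array. For Cyp2u1 and Cyp2j9 all arrays labelled WT 6 months were below the median gene's 6.52, and for Cyp4b1 replicate 2 was. Signal over background is small at that level.

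The bile acid genes moved in opposite directions. Cyp7a1, the rate-limiting enzyme of bile acid synthesis from cholesterol, read 13.07, 12.72 and 13.33 under the label WT 6 months, 10.81, 11.92 and 10.75 in KO 6 months, 9.47, 12.24 and 9.98 in WT 24 months, and 8.99, 8.83 and 10.28 in KO 24 months tumor. The arrays labelled WT 6 months were highest without overlap, and replicate 2 of WT 24 months was above the rest of its group. The difference from the mean of the other groups was 2.67 (SE 0.51, adjusted p = 0.00323, limma), and a second probe set also averaged higher, at 10.65 against 9.03, 8.25 and 7.26.

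Cyp8b1, the sterol hydroxylase that sets the share of cholic acid, ran the other way. It read 9.82, 5.79 and 7.77 in WT 6 months, 12.39, 11.16 and 10.43 in KO 6 months, 10.75, 9.88 and 9.78 in WT 24 months, and 11.53, 11.38 and 11.81 in KO 24 months tumor. Replicate 1 of WT 6 months reached the level of the lowest array of WT 24 months, so that these groups overlapped. The difference was -3.22 (SE 0.65, adjusted p = 0.00438, limma), and it was -4.24 without replicate 1 and -2.22 without replicate 2 of WT 6 months. Of the 6 measured bile acid and sterol genes 1 was higher and 3 lower, beside 10.6% and 11.5% of all genes. The others that passed were Cyp7b1, the oxysterol hydroxylase of the alternative pathway, at -1.15 (SE 0.30, adjusted p = 0.0173), and Cyp46a1, the cholesterol 24-hydroxylase of neurons, at -1.03 (SE 0.32, adjusted p = 0.0404, both limma). The call of Cyp46a1 was lost without any 1 array of WT 6 months or KO 24 months tumor, or replicate 1 or 3 of KO 6 months (adjusted p of 0.0509 to 0.158). Cyp7b1 no longer passed without replicate 1 (adjusted p = 0.0758) or replicate 2 (adjusted p = 0.0762) of WT 6 months. Cyp27a1, the mitochondrial sterol 27-hydroxylase, differed by 0.17 and Cyp39a1, an oxysterol hydroxylase, by 0.90, and neither passed.

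**Figure D2:**
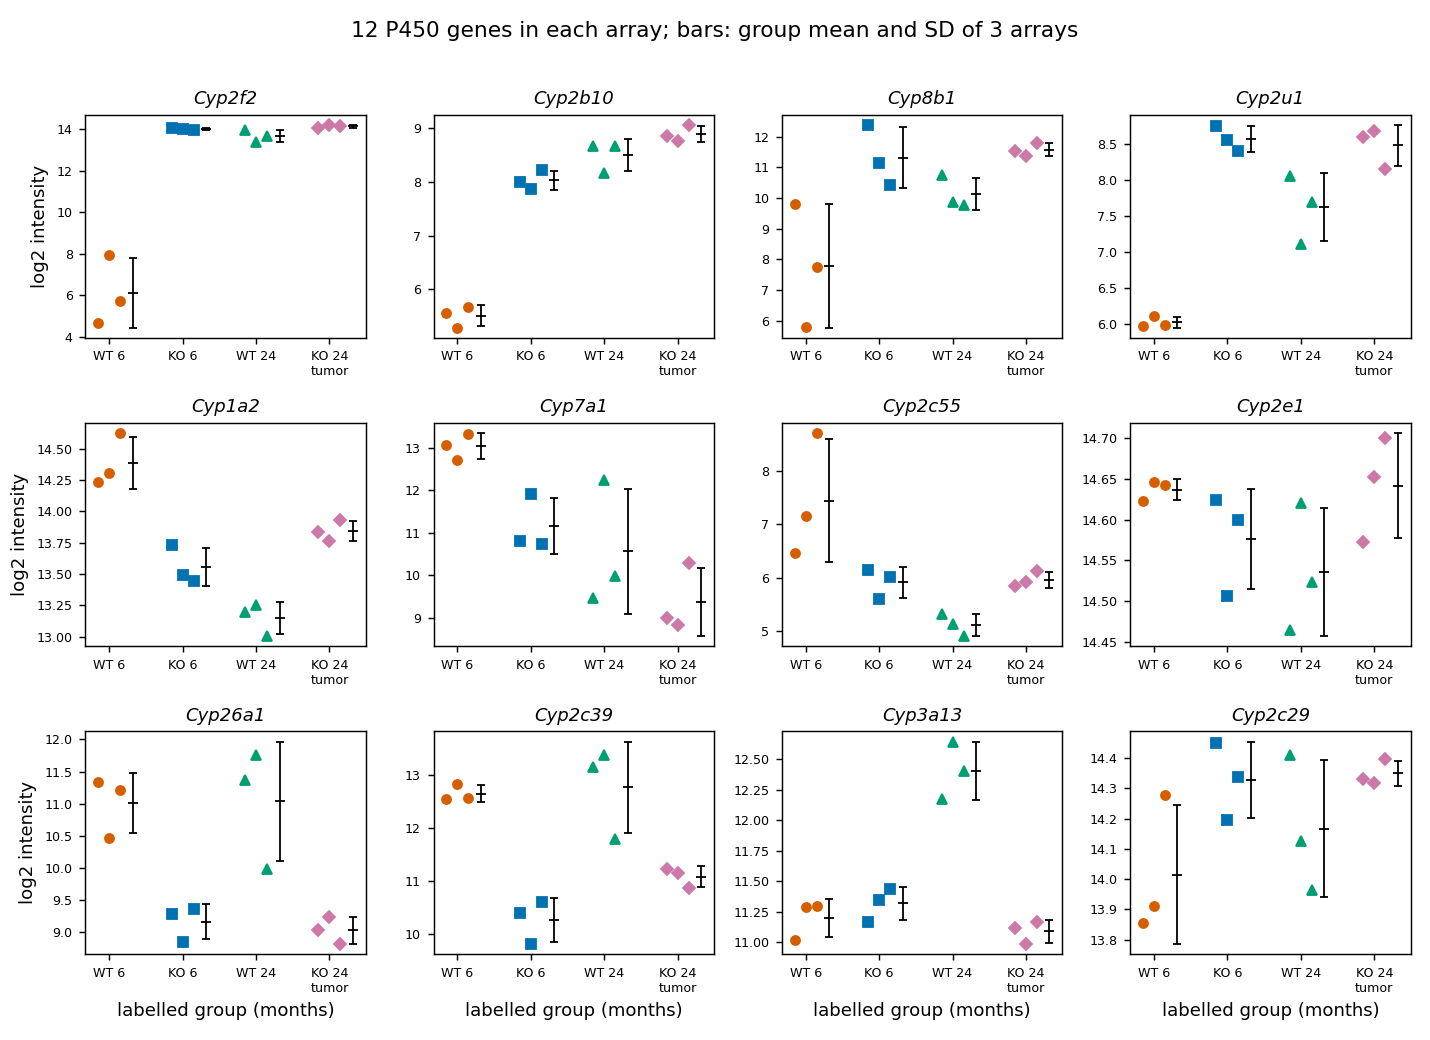
Log2 intensity (vertical axes, scaled per gene) of 12 P450 genes in each array (points), by labelled group in months (horizontal axes); bars are the mean and SD of 3 arrays. Cyp2f2, Cyp2b10 and Cyp2u1 are low in all arrays labelled WT 6 months, Cyp26a1 and Cyp2c39 are high in both groups labelled WT, and Cyp3a13 is high in WT 24 months alone.

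The 3 measured targets of AHR differed in direction, but only Cyp1a2 was bright. Cyp1a2, a pericentral enzyme that oxidizes caffeine and aromatic amines, read 14.23, 14.31 and 14.62 under the label WT 6 months, 13.73, 13.50 and 13.44 in KO 6 months, 13.20, 13.25 and 13.01 in WT 24 months, and 13.83, 13.77 and 13.93 in KO 24 months tumor. The 4 groups did not overlap, with WT 6 months highest and WT 24 months lowest. Against the mean of the other groups Cyp1a2 was higher by 0.87 (SE 0.10, adjusted p = 0.000132, limma). Cyp1a1, the classical AHR target, was higher by 0.89 (SE 0.22, adjusted p = 0.0116), a call lost without replicate 1 (adjusted p = 0.0599) or replicate 2 (adjusted p = 0.0617) of WT 6 months, and Cyp1b1 was lower (-0.60, SE 0.11, adjusted p = 0.00302, both limma). Over the mean of its probe sets, the difference of Cyp1b1 was -0.25. Every group mean of Cyp1a1 (5.36 to 6.38) and of Cyp1b1 (4.64 to 5.46) was below the median gene's 6.52. At that level a probe set carries little signal over background. Ahr itself was higher in these arrays by 1.94 (SE 0.19, adjusted p = 3.98e-05, limma). The 250 bases before the Cyp1a2 start site (GRCm38.p6, minus strand, chr9:57683656-57683905) hold CTTTGA, the core bound by the TCF/LEF partners of β-catenin, on the other strand (TCAAAG), and a TATA box, both in capitals, but no GCGTG.
Cyp1a2: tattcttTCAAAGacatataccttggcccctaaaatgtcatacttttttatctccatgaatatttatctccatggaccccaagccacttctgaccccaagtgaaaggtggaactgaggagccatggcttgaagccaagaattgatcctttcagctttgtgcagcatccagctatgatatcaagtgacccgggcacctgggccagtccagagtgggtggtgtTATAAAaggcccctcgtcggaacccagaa

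Most other pericentral P450 genes did not pass. Cyp2e1, which oxidizes ethanol and acetaminophen, read 14.62, 14.65 and 14.64 under the label WT 6 months, 14.62, 14.51 and 14.60 in KO 6 months, 14.46, 14.62 and 14.52 in WT 24 months, and 14.57, 14.65 and 14.70 in KO 24 months tumor. The groups overlapped, except that the lowest array of WT 6 months (14.6222) was just above the highest of WT 24 months (14.6203). The difference of WT 6 months from the mean of the others was 0.05 (95% confidence interval -0.10 to 0.20, adjusted p = 0.647, limma). Of 9 measured pericentral genes, Cyp1a2 and Cyp7a1 were higher and Cyp2c54 lower, beside 10.6% and 11.5% of all genes. The median difference of the 9 was -0.0028. Cyp2c29, a major hepatic Cyp2c, differed by -0.27 (95% confidence interval -0.52 to -0.02, adjusted p = 0.126) and Cyp3a11, the main drug-metabolizing Cyp3a, by -0.18 (95% confidence interval -0.36 to -0.0031, adjusted p = 0.143, both limma). Cyp2c54 differed by -0.97 (SE 0.31, adjusted p = 0.043, limma), and by -0.51 (adjusted p = 0.24) without replicate 2 of WT 6 months. Its call held only without replicate 2 of KO 6 months, 3 of WT 24 months or 3 of WT 6 months among the fits that left out 1 array.

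The Cyp2c genes moved in both directions. Against the mean of the other groups, WT 6 months had 3 of 11 Cyp2c genes higher and 3 lower, beside 10.6% and 11.5% of all genes. Cyp2c55, a gene induced through CAR and PXR, read 6.47, 7.17 and 8.71 in WT 6 months, 6.15, 5.59 and 6.01 in KO 6 months, 5.31, 5.13 and 4.91 in WT 24 months, and 5.84, 5.92 and 6.13 in KO 24 months tumor. Every array labelled WT 6 months was above all others, but replicate 3 stood apart, and the difference of 1.78 (SE 0.34, adjusted p = 0.00329, limma) was 1.15 without it. Replicate 1 of WT 6 months and all arrays of the other groups were below the median gene's 6.52. Signal over background is small at that level. Cyp2c39 was higher by 1.27 (SE 0.28, adjusted p = 0.00744) and Cyp2c68 by 0.69 (SE 0.17, adjusted p = 0.0118, and 0.0663 without replicate 3 of WT 6 months). The mean of Cyp2c39 in WT 6 months (12.65) was not above that in WT 24 months (12.77). It was above those in KO 6 months (10.27) and KO 24 months tumor (11.08). The lower genes were Cyp2c23, an arachidonic acid epoxygenase (-1.02, SE 0.15, adjusted p = 0.000578), Cyp2c54 and Cyp2c70, a muricholic acid enzyme (-0.45, SE 0.13, adjusted p = 0.0315, all limma). That of Cyp2c70 was lost without replicate 1 or 2 of WT 6 months, 1 or 3 of KO 6 months or 2 of KO 24 months tumor (adjusted p of 0.0529 to 0.189).

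Against the mean of the other groups, Cyp2d, Cyp2j and Cyp3a each had 2 lower members, of 8, 5 and 5 measured, and no higher one. Of all genes 11.5% were lower and 10.6% higher. The difference of Cyp3a13 (-0.40, adjusted p = 0.021, limma) did not pass without replicate 1 of WT 6 months (adjusted p = 0.117). Its mean in WT 6 months (11.20) lay between those of KO 6 months (11.32) and KO 24 months tumor (11.09). Only WT 24 months, at 12.40, was well above it. The bright Cyp2d10 differed by -0.28 and did not pass. Cyp2j5, the brightest Cyp2j, differed by -1.15 (SE 0.22, adjusted p = 0.00295, limma). Cyp2b had 1 lower of 4, and neither Cyp4a (3 genes) nor Cyp4f (6 genes) had a member that passed. Subfamilies of this size are too small to be told apart from the shares of all genes. Cyp4a14, a fatty acid hydroxylase induced through PPAR-alpha, read 5.56, 10.83 and 11.34 in WT 6 months, 9.55, 11.50 and 11.55 in KO 6 months, 12.96, 13.10 and 9.22 in WT 24 months, and 9.50, 8.91 and 8.71 in KO 24 months tumor. The spread within groups covered most of its range, and no comparison of it passed. Cyp20a1, a P450 with no settled substrate, was higher by 0.73 (SE 0.09, adjusted p = 0.00016, limma) and by 0.47 over the mean of its probe sets.

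**Figure D3:**
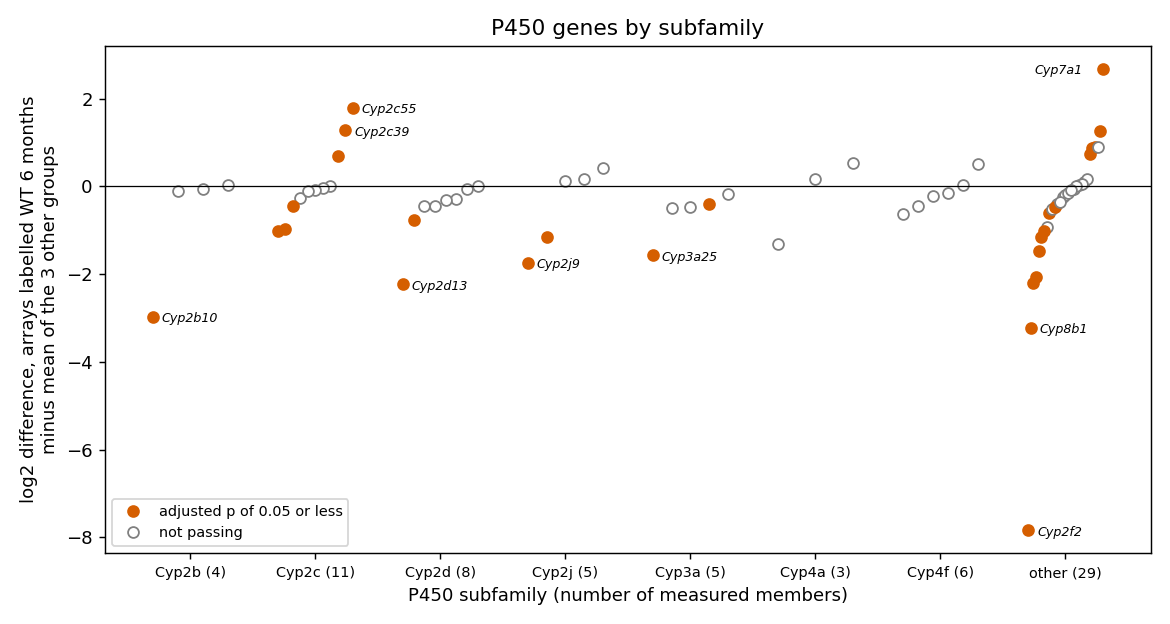
Log2 difference of the arrays labelled WT 6 months from the mean of the 3 other groups (vertical axis) for each P450 gene (points), by subfamily with its number of measured genes (horizontal axis); filled points passed at an adjusted p of 0.05 or less. In Cyp2c 3 genes lie above 0 and 3 below it among those that passed, and Cyp2f2 lies lowest at -7.84.

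By pair of groups, the counts were large wherever the arrays labelled WT 6 months took part, and all such pairs share these 3 arrays. Against KO 6 months, 7 members were higher and 14 lower in WT 6 months, where 17% of all genes passed, 8.04% higher and 9% lower. Against WT 24 months, 6 members were higher and 11 lower, beside 13.3% of all genes, 7.07% higher and 6.22% lower. Against KO 24 months tumor, 10 were higher and 19 lower, beside 19.7% of all genes, 8.99% higher and 10.7% lower. With a fold of 3 or more in addition, 8 members remained against KO 6 months (2.62% of all genes), 9 against WT 24 months (2.42% of all genes) and 11 against KO 24 months tumor (2.83% of all genes). For Cyp2f2 these 3 differences were -7.92, -7.57 and -8.04, and for Cyp2b10 they were between -2.52 and -3.39. Cyp1a2 was higher by 0.83, 1.24 and 0.54. Cyp7a1 passed against WT 24 months (2.47, adjusted p = 0.0237) and KO 24 months tumor (3.67, adjusted p = 0.00205), and the difference from KO 6 months was 1.88 (adjusted p = 0.0638, limma throughout). The call against WT 24 months was lost without replicate 1 (adjusted p = 0.075) or 3 (adjusted p = 0.0579) of that group or replicate 1 (adjusted p = 0.0636) or 3 (adjusted p = 0.0689) of WT 6 months, and without replicate 2 of WT 24 months the difference was 3.31.

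**Figure D4:**
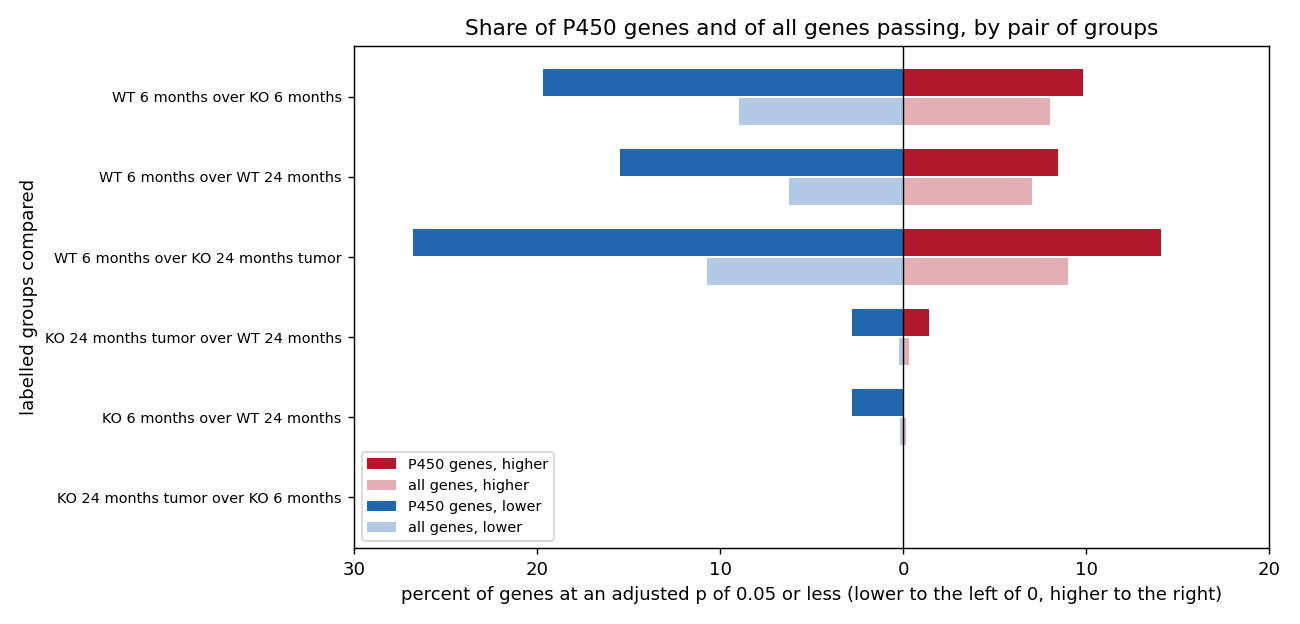
Share of the 71 P450 genes (dark bars) and of all 18194 genes (pale bars) that were lower (left of 0) or higher (right of 0) at an adjusted p of 0.05 or less, in percent (horizontal axis), for each pair of labelled groups (vertical axis). The 3 pairs that include WT 6 months have 23.9% to 40.8% of P450 genes passing, and the 3 other pairs have 0% to 4.23%.

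Among the 9 other arrays few P450 genes differed. Between KO 24 months tumor and WT 24 months 3 members passed, 1 higher and 2 lower, against 0.572% of all genes, 0.341% higher and 0.231% lower, and 1 member passed with a fold of 3 or more (0.143% of all genes). Cyp1a2 was higher in KO 24 months tumor by 0.69 (SE 0.13, adjusted p = 0.0419, limma). Cyp26a1, the enzyme that breaks down retinoic acid, was lower (-2.01, SE 0.38, adjusted p = 0.0469), and so was Cyp3a13, a steroid and drug oxidase (-1.32, SE 0.13, adjusted p = 0.00464, both limma). The calls of Cyp1a2 and Cyp26a1 were not stable. Leaving out any array of KO 6 months or KO 24 months tumor, replicate 1 or 2 of WT 6 months or replicate 2 of WT 24 months ended both, with an adjusted p of 0.0527 to 0.14 for Cyp1a2 and 0.0501 to 0.155 for Cyp26a1. That of Cyp1a2 was also lost without replicate 3 of WT 24 months (adjusted p = 0.082) and that of Cyp26a1 without replicate 3 of WT 6 months (adjusted p = 0.0584). Cyp2c39 passed without replicate 3 of WT 24 months (-2.18, adjusted p = 0.00209). Without replicate 1 of WT 24 months 12 members passed, with 4.56% of all genes, and without replicate 3 there were 6, with 0.599% of all genes.

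Cyp3a13 read 11.02, 11.28 and 11.29 in WT 6 months, 11.17, 11.35 and 11.44 in KO 6 months, 12.17, 12.64 and 12.40 in WT 24 months, and 11.12, 10.98 and 11.16 in KO 24 months tumor. The 3 arrays labelled WT 24 months stood above all 9 others, which overlapped. Between KO 6 months and WT 24 months 2 members passed, against 0.341% of all genes, and both were lower in KO 6 months (0.159% of all genes were): Cyp3a13 (-1.09, SE 0.13, adjusted p = 0.00886) and Cyp2c39 (-2.50, SE 0.35, adjusted p = 0.0164, both limma). Without the KO 24 months tumor arrays in the fit neither passed (adjusted p = 0.062 and 0.0836), and Cyp2c39 did not pass without replicate 1, 2 or 3 of KO 6 months (adjusted p = 0.0571, 0.103 and 0.0618). With a fold of 3 or more 1 of them passed, against 0.0989% of all genes. The number passing was 4 without replicate 1 of WT 24 months, where 2.93% of all genes passed, and 6 without replicate 3, where 0.594% did.

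KO 24 months tumor and KO 6 months were the closest pair. No member passed limma in the fit of all 12 arrays, with or without a fold of 3 or more (0.022% and 0.033% of all genes did), although at an unadjusted p under 0.05 there were 6 with a rise and 2 with a fall, and SAM, a permutation method, called 2, Cyp2b10 and Cyp7a1 (1.17% of all genes). A limma fit of these 2 groups alone called Cyp2b10 (adjusted p = 0.0217), with 0.44% of all genes. Cyp2b10 was 0.86 higher in KO 24 months tumor (SE 0.16, adjusted p = 0.207) and Cyp7a1 differed by -1.79 (SE 0.63, adjusted p = 0.695, both limma). The median difference was 0.06 over the members and 0.0016 over all genes.

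Some P450 genes followed the labelled genotype rather than 1 set of arrays. In the comparison of both groups labelled WT with both labelled KO, ages averaged, 7 members were higher in WT and 17 lower, against 17.3% of all genes, 7.17% higher and 10.2% lower. With a fold of 3 or more there were 7 members and 1.08% of all genes. If WT 6 months and KO 24 months tumor were exchanged, this comparison would be of 24 months with 6 months. In the genotype by age interaction, the difference of KO 24 months tumor from WT 24 months minus that of KO 6 months from WT 6 months, 2 members had a positive and 9 a negative value that passed, against 4.83% of all genes, 2.59% positive and 2.24% negative. With a fold of 3 or more there were 6 members and 1.95% of all genes. Many of the 17 were the genes described above, in which the arrays labelled WT 6 months alone were low. Cyp2c39, which hydroxylates retinoic acid, read 12.54, 12.83 and 12.57 in WT 6 months, 10.40, 9.81 and 10.60 in KO 6 months, 13.14, 13.37 and 11.78 in WT 24 months, and 11.23, 11.15 and 10.86 in KO 24 months tumor. All 6 arrays labelled WT were above all 6 labelled KO. The difference was 2.03 (SE 0.24, adjusted p = 0.000447, limma).

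Cyp26a1 was also higher in both groups labelled WT. It read 11.35, 10.47 and 11.22 in WT 6 months, 9.29, 8.85 and 9.36 in KO 6 months, 11.36, 11.76 and 9.99 in WT 24 months, and 9.04, 9.23 and 8.81 in KO 24 months tumor. The 6 arrays labelled WT were again above the 6 labelled KO, with replicate 3 of WT 24 months nearest to them. The difference was 1.93 (SE 0.27, adjusted p = 0.00105, limma), and that of WT 6 months from the mean of the other groups was 1.27 (SE 0.31, adjusted p = 0.0133), a call lost without replicate 1 (adjusted p = 0.0719) or replicate 3 (adjusted p = 0.0586) of WT 6 months. The 250 bases before the Cyp26a1 start site (GRCm38.p6, plus strand, chr19:37697558-37697807) hold AGTTCA, a motif of the kind that retinoic acid receptors bind, as TGAACT on the strand shown, at 2 places marked in capitals.
Cyp26a1: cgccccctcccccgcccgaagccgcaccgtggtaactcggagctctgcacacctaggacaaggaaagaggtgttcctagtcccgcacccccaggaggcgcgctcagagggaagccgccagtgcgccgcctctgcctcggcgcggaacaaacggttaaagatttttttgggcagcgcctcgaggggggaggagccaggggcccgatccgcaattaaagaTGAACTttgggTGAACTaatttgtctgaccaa

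Cyp39a1 (1.60, SE 0.35, adjusted p = 0.0109) and Cyp4f16 (0.85, SE 0.20, adjusted p = 0.0134) were also higher in the arrays labelled WT, and Cyp2d9 (-0.91, SE 0.19, adjusted p = 0.00818) was lower (limma). Of the 5 measured vitamin D and retinoic acid genes, Cyp26a1 was the only one to pass in this comparison. Cyp26b1, a second retinoic acid hydroxylase, read 5.79, 8.09 and 6.55 in WT 24 months and between 5.48 and 6.75 in all other arrays, with replicate 2 of WT 24 months alone high.

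The RefSeq table held promoters for 51 of the 71 members, 58 in all, and both strands of the 250 bases before each start site were searched for the same motifs. CTTTGA was present in 13 of the 58 (13.8% of 32851 promoters of all genes) and GCGTG in 13 (28.2% of all). AGGTCA was present in 13 (14% of all), AGTTCA in 8 (11.8% of all) and TATAAA in 19 (12.4% of all). A match describes letters and not a bound site.

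Several P450 genes known for sex-dependent expression varied widely within WT 24 months, although all mice were labelled male. Of the 9 listed, 6 had their largest SD there, the others being Cyp2b9, Cyp2b13 and Cyp17a1. So did 32 of all 71 members, and the share of all genes was not counted. Cyp4a12a, a male-predominant fatty acid hydroxylase, read 12.34, 12.59 and 12.80 in WT 6 months, 13.21, 12.93 and 12.98 in KO 6 months, 10.77, 7.46 and 11.66 in WT 24 months, and 13.07, 13.05 and 13.24 in KO 24 months tumor. All 3 arrays labelled WT 24 months were below the other 9, and replicate 2 was lowest by far. Its difference between KO 24 months tumor and WT 24 months was 3.16 (SE 0.77, adjusted p = 0.0958, limma), and 1.90 (adjusted p = 0.00633) without replicate 2 of WT 24 months. Cyp2d9, a male-predominant testosterone hydroxylase, read 13.17, 12.12 and 13.24 in WT 24 months and between 12.79 and 14.20 elsewhere. Cyp7b1, also on the male-predominant list, read 12.75, 11.83 and 13.64 in WT 24 months. It was nearly as low in WT 6 months, at 11.88, 11.92 and 12.37, and between 13.08 and 13.90 in both groups labelled KO.

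Of the 6 female-predominant genes, Cyp3a16, Cyp3a44 and Cyp39a1 were highest in the same array, replicate 2 of WT 24 months. Cyp2b9 was highest there too, but at 4.17 it was far below the median gene's 6.52. Cyp3a16 read 7.19 in replicate 2 of WT 24 months and between 3.02 and 3.38 in the other 11 arrays. Cyp3a44 read 5.68, 6.71 and 4.46 in WT 24 months and between 4.20 and 4.64 in the other 9. Cyp39a1 read 10.06, 11.01 and 8.53 there, 10.27, 9.46 and 9.11 in WT 6 months, 8.31, 8.22 and 8.44 in KO 6 months, and 8.36, 7.86 and 7.65 in KO 24 months tumor.

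Cyp17a1, a steroid hydroxylase and lyase, read 11.55, 10.52 and 8.87 in WT 24 months, 6.72, 9.43 and 8.24 in WT 6 months, 8.27, 10.09 and 9.07 in KO 6 months, and 7.12, 8.58 and 7.38 in KO 24 months tumor. Its groups overlapped except for WT 24 months and KO 24 months tumor, which differed by -2.62 (SE 0.78, adjusted p = 0.147, limma). Cyp2b9 and Cyp2b13, also female-predominant, stayed between 3.45 and 4.29 in every array. None of the 3 male- and 6 female-predominant genes passed limma between KO 24 months tumor and WT 24 months in the fit of all 12 arrays, where their medians were 1.21 and -1.27. In that fit 0.572% of all genes passed. SAM called 3 of them, Cyp17a1, Cyp2d9 and Cyp4a12a, with 2.05% of all genes. Without replicate 1 of WT 24 months limma called Cyp2d9 (adjusted p = 0.0297) and Cyp4a12a (adjusted p = 0.0437), with 4.56% of all genes. Without replicate 3 it called Cyp4a12a (adjusted p = 0.0231), Cyp39a1 (adjusted p = 0.00945) and Cyp3a44 (adjusted p = 0.0105), with 0.599% of all genes. With housekeeping centering limma called Cyp2d9 (adjusted p = 0.0469) and Cyp4a12a (adjusted p = 0.0413), with 0.753% of all genes. Replicate 3 of WT 24 months differed from the rest of its group in another way, with the Kupffer cell marker Vsig4 at 13.29, while replicate 1 was at 8.49. The part of either array in the P450 results is shown only by the values given without it.

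**Figure D5:**
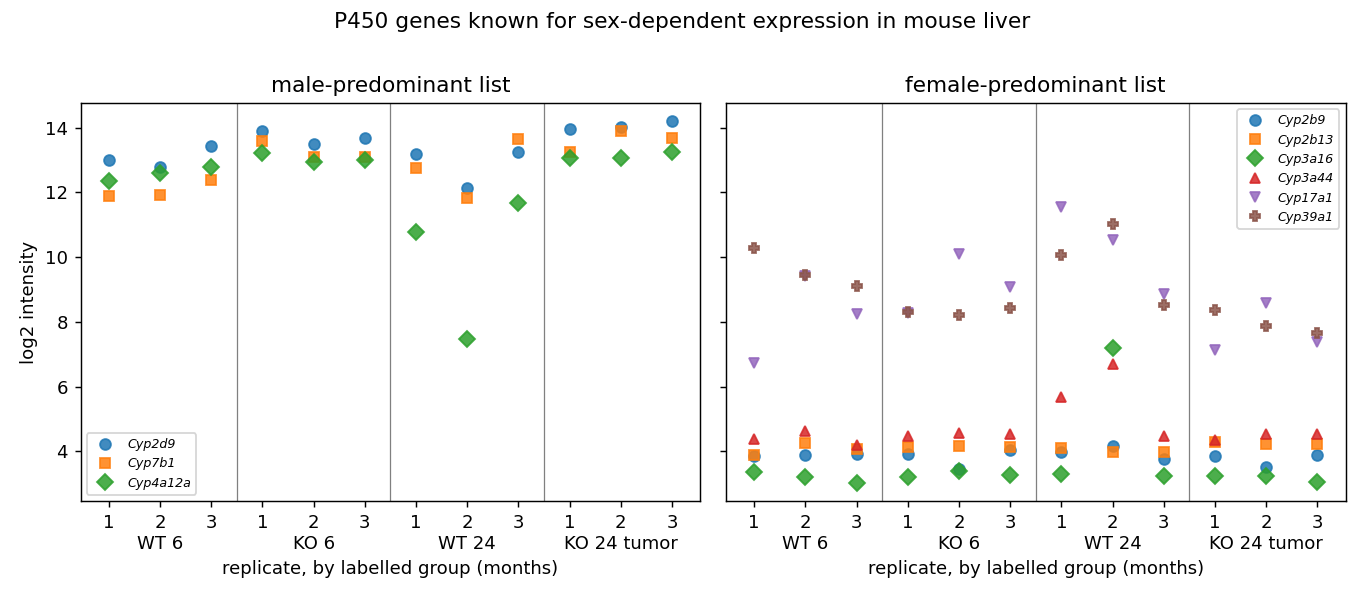
Log2 intensity (vertical axis) of 3 male-predominant (left) and 6 female-predominant (right) P450 genes in each array (horizontal axis, replicates 1 to 3 of each labelled group). In replicate 2 of WT 24 months Cyp4a12a is at 7.46, its lowest, and Cyp3a16 is at 7.19, its highest.

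The spread between arrays of a group was wider for P450 genes than for all genes. The median SD of the members was 0.27 in WT 6 months and 0.29 in WT 24 months, and it was 0.15 in KO 6 months and 0.14 in KO 24 months tumor. For all genes it was 0.14, 0.17, 0.13 and 0.13 in this order. WT 24 months had the largest SD for 32 members and WT 6 months for 27, which leaves 6 each for the other groups. The share of all genes was not counted in this way, and their median SD was also largest in WT 24 months. With 3 arrays per group, this number limits the precision of every comparison.

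Genes that serve or control the P450 enzymes are set beside the 22.1% of all genes that passed against the mean of the other groups. Of 6 measured genes listed as reductases and electron donors, Cyb5b, the mitochondrial cytochrome b5, was higher in WT 6 months than in the mean of the others (0.77, SE 0.13, adjusted p = 0.00153), and 5 did not pass. Por and Fdxr, the P450 reductases on that list, were not measured, so that neither was tested. Of 10 heme synthesis and breakdown genes, Blvrb, biliverdin reductase B, was higher (1.87, SE 0.21, adjusted p = 0.000108, both limma), and Alas1, the first enzyme of heme synthesis, differed by -0.04. Of 13 receptors and factors that control P450 genes, Ahr was higher and 3 were lower: Cebpa, a hepatocyte transcription factor (-1.10, SE 0.14, adjusted p = 0.00024), Nr1h4, the bile acid receptor FXR (-0.92, SE 0.12, adjusted p = 0.000251), and Nr1i2, the xenobiotic receptor PXR (-0.65, SE 0.18, adjusted p = 0.0257, all limma). Nr1i3, which encodes CAR, differed by -0.47 (SE 0.24, adjusted p = 0.213). The 6 genes induced through CAR or PXR split likewise, with Cyp2b10 and Cyp3a25 lower, Cyp2c55 higher and 3 not passing.

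At the dim end, 28 members had a mean below that of the median gene (6.52), and for 22 of them even the highest group mean was below it. These included the adrenal genes Cyp11a1, Cyp11b1 and Cyp11b2. Of the 5 measured steroid hormone genes none passed against the mean of the other groups, and Cyp11a1, the cholesterol side-chain cleavage enzyme, passed between WT 6 months and KO 6 months (-0.42, SE 0.10, adjusted p = 0.0164, limma) but differed by -0.14 over the mean of its probe sets. That call was also lost without replicate 1 of KO 6 months (adjusted p = 0.0565) or replicate 1 of WT 6 months (adjusted p = 0.0548).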

How the data were processed

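Liver RNA of 12 mice was measured on 12 Affymetrix arrays. The deposited values are log2 intensities that the authors made by RMA in R with simpleaffy (no version given). RMA subtracts background, brings all arrays to the same quantiles and gives 1 value for each of 45101 probe sets. The median was 5.41 to 5.45 in all arrays. Because quantiles are forced to be equal, a shift of most genes at once would not be seen. Groups came from the labels, which call the arrays biological replicates.

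Of the probe sets, 34958 name 1 gene, and they gave 18194 genes, each by its brightest probe set. The members had 94 such probe sets: 53 members had 1 and 18 had several. Probe sets naming several genes (4 of P450 genes) were left out of the tests, so Cyp2a4, Cyp2a5, Cyp3a41a, Cyp3a41b and Cyp4a10 were not tested. Cyp2c23, Cyp4v3 and Cyp2c65 are read from probe sets whose type can cross-hybridize.

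Group means were fitted with limma 3.58.1 in R 4.3.3, and the values printed as SE come from this fit. SAM, the study's test, was run as an alternative without a fold threshold, written out over all 20 splits of 3 arrays against 3. The study's fold of 3 was a separate alternative on the limma calls. The script was tested on simulated data. Promoters came from RefSeq (GRCm38.p6) by symbol, and neighboring genes are those with at most 10 others between them. Figures were drawn with matplotlib 3.10.9.

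The members, lists and comparisons were chosen with earlier results of these data known. Genes named were the 4 markers, the P450 genes the study names, the 8 largest rises and falls of WT 6 months against the other groups, members passing among the other arrays, the 5 brightest members, the brightest of larger subfamilies and up to 3 members of each list. Other genes named, and the comparison of labelled genotypes with ages averaged, were chosen after their values were seen. Besides SAM and the fold, the alternatives were a fit of only the groups compared, a replicate block, a trended prior, other probe set rules, removal of dim genes, centering on medians or housekeeping genes, and leaving out each array. Same-numbered arrays did not deviate together (r from -0.16 to 0.18 over 18 pairs).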

Additional observations from a re-analysis of the deposited data

Results flagged for a closer look

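The genotype by age interaction, the difference of KO 24 months tumor from WT 24 months minus that of KO 6 months from WT 6 months, passed for 11 P450 genes (limma, adjusted p of 0.05 or less), 2 with a positive and 9 with a negative value. Exchanging WT 6 months with KO 24 months tumor leaves this value as it is. Among the genes named it was -7.45 for Cyp2f2, -2.13 for Cyp2b10, -2.22 for Cyp4b1, -1.81 for Cyp2j9, -1.68 for Cyp2u1, -1.47 for Cyp3a25 and -1.44 for Cyp3a13. It was 2.38 for Cyp2c55 and 1.52 for Cyp1a2. The 2 others that passed were Cyp2a12 (-1.33) and Cyp2s1 (-0.83). The call of Cyp2s1 was lost in 10 of the 12 fits without 1 array (adjusted p of 0.0575 to 0.116), all but those without replicate 3 of WT 24 months or of WT 6 months, and with the replicate block (adjusted p = 0.0836) or either centering (adjusted p = 0.0626 for medians and 0.228 for housekeeping genes). For Cyp2c55 the call was lost in 10 of the 12 fits without 1 array (adjusted p of 0.0547 to 0.113) and with the replicate block (adjusted p = 0.0558), the exceptions being the fits without replicate 1 or 3 of WT 6 months (1.75, adjusted p = 0.00846 without replicate 3), and for Cyp2u1 it was lost over the mean of its probe sets (-0.95, adjusted p = 0.0723). Across all genes, 4.83% passed this test.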

How the results depend on the processing

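The number of P450 genes that passed stayed within 1.5 times its value under most alternatives, except for KO 24 months tumor over WT 24 months. There it did so in 10 alternatives and moved further in 14. For KO 6 months over WT 24 months it stayed in 17 and moved further in 8. No call of any of the 71 members in a limma fit changed sign under an alternative. Requiring a fold of 3 left 8 for WT 6 months over KO 6 months, 9 for WT 6 months over WT 24 months, 11 for WT 6 months over KO 24 months tumor, 9 for WT 6 months over the mean of the others, 6 for the interaction, 7 for labelled WT over KO, and 1 each for KO 24 months tumor and for KO 6 months over WT 24 months. A fold of 2 left 19, 17 and 12 for WT 6 months over KO 24 months tumor, over the mean of the others, and labelled WT over KO. The share of all genes was not counted at this fold. SAM without a fold called 33 for WT 6 months over KO 6 months (26.6% of all genes), 9 for KO 24 months tumor over WT 24 months (2.05% of all genes) and 2 for KO 24 months tumor over KO 6 months (1.17% of all genes). A fit of only the groups compared called 11 for WT 6 months over WT 24 months (5.07% of all genes). For KO 24 months tumor it called 0 over WT 24 months (0.0275% of all genes) and 1 over KO 6 months (0.44%). For KO 6 months over WT 24 months it called 0 (0.0165% of all genes). So did the fit without the KO 24 months tumor arrays (0.0495% of all genes), added after the values were seen. With replicate number as a block, KO 24 months tumor over WT 24 months had 1 (0.286% of all genes), and no other count moved by over 1.5 times.

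Leaving out each array in turn gave 16 to 25 for WT 6 months over KO 6 months, where 11.5% to 20.2% of all genes passed. The share of all genes follows each range below in the same way. For WT 6 months over WT 24 months the range was 14 to 20 (10.2% to 14%). It was 1 to 12 for KO 24 months tumor over WT 24 months (0.0165% to 4.56%) and 0 to 0 over KO 6 months (0.0055% to 0.0715%). For KO 6 months over WT 24 months it was 1 to 6 (0.0605% to 2.93%). For WT 6 months it was 19 to 32 over KO 24 months tumor (13.3% to 23.5%) and 20 to 32 over the mean of the others (15.3% to 25.3%). It was 9 to 13 for the interaction (2.93% to 6.49%) and 20 to 28 for labelled WT over KO (12.5% to 20.1%). The lowest count of 19, and that of 20 over the mean of the others, came without replicate 2 of WT 6 months. The causes were not tested. Dim probe sets carry little signal over background, and 43 of the 71 members remained when genes under the median level were removed.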

Other observations

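Probe sets that name several P450 genes cannot be given to 1 gene and were not tested. The probe set of Cyp2a5 and Cyp2a4 averaged 14.56 ± 0.27 in the arrays labelled WT 6 months, 13.40 ± 0.76 in WT 24 months, 13.71 ± 0.75 in KO 6 months and 12.93 ± 0.71 for KO 24 months tumor (SD of 3 arrays). That of Cyp4f37 and Cyp4f16 averaged 7.19 ± 0.29, 6.91 ± 0.93, 5.42 ± 0.09 and 5.11 ± 0.48 in the same order, with the means of both groups labelled WT above those of both labelled KO, as for the probe set of Cyp4f16 alone. That of Cyp3a41a and Cyp3a41b, known as female-predominant, averaged 7.68 ± 1.88, 9.32 ± 2.05, 5.96 ± 0.15 and 5.93 ± 0.42, with wide spread in both groups labelled WT. That of Cyp4a31 and Cyp4a10 averaged 11.28 ± 1.89, 12.51 ± 1.41, 11.67 ± 0.38 and 12.24 ± 0.65, with no order beyond the spread.

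For Cyp2j6 the 2 probe sets did not give the same order of groups. In the order used above, the brighter averaged 9.19, 8.63, 8.83 and 8.89, and the other 8.25, 8.21, 8.82 and 9.03.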
